A study of Mus musculus with 36 samples.

Results

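Bivalent regions are stretches of chromatin that carry both H3K4me3, trimethylation of histone H3 at lysine 4, and H3K27me3, trimethylation at lysine 27. They were followed here in the hippocampus of CK-p25 mice and of control littermates. The members were chosen by the values of the control tissue alone. Overlapping H3K4me3 peaks of both control peak lists were merged on the autosomes, and a merged region was kept where each control list of H3K4me3 and each control list of H3K27me3 held an overlapping peak (at least 1 bp) with a −log10 p of at least 5. That −log10 p is the authors' own deposited value for a peak, and the cutoff of 5 is called the threshold below. Of 88470 merged H3K4me3 regions, 46290 reached the threshold in both control lists of H3K4me3, and 3726 of those (8.05%, 95% Wilson interval 7.80 to 8.30%) also carried H3K27me3 in both. Since the control values of these marks selected the regions, the control levels of both are a description and no result.

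H3K4me3 is laid down at gene starts by the COMPASS family of methyltransferases, and H3K27me3 by Polycomb repressive complex 2 (PRC2), whose mark is bound by Polycomb repressive complex 1 (PRC1). In embryonic stem cells, promoters with both marks are known for belonging to silent developmental regulators that can later be switched on or shut down for good. In a whole tissue, both marks may also come from different cells, some with the gene on and some with it off. A peak list of bulk hippocampus holds both situations together.

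All groups were adult female mice, given as 3 months old in the labels. In CK-p25 mice, the label CKp25 here, p25 is a truncated activator of the kinase Cdk5 that is switched on in forebrain neurons through a CaMKII-driven tetracycline system, and neurons are then lost. The controls carry the label CK, and the labels name them as littermates without saying which transgene they carry. Tissue was taken 2 or 6 weeks after induction. Chromatin immunoprecipitation and sequencing (ChIP-seq) of 7 histone marks gave 28 peak lists, 1 per mark and group, and RNA sequencing gave 3 libraries per group. With 1 list per mark and group there is no replicate check on any region. No test was therefore made on regions, and each share is set beside the same share in other regions of the same lists. Wilson intervals cover the counting of regions only, and the sources used here do not give the read depth of the ChIP libraries.

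The lists differed in length in ways that touch every comparison below. At the threshold, the autosomal H3K27me3 lists held 27497 peaks in CK at 2 weeks, 40019 in CK at 6 weeks, 26149 in CKp25 at 2 weeks and 36858 in CKp25 at 6 weeks. Both 2-week lists were thus the shorter ones. The H3K4me3 lists held 58334 and 63544 peaks in CK at 2 and 6 weeks and 64728 and 69320 in CKp25. Both CKp25 lists of H3K4me3 were thus the longer ones. The H3K27ac lists held 87854 to 102630 peaks, the shortest being that of CK at 6 weeks. Whether list length set any difference between groups was not tested beyond an alternative with equal numbers of peaks per list.

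The bivalent regions were wider than either class of region with a single mark. The rule favours this, since a wider region meets a peak of the other mark more easily, so the widths are a description. Their median width was 1330 bp, with a range of 228 to 19265 bp, against 1064 bp for the 38200 H3K4me3 regions that no control H3K27me3 peak touched and 875.5 bp for the 8130 H3K27me3 regions that no control H3K4me3 peak touched. Regions wider than 5 kb made up 5.58% of the bivalent regions, 3.05% of the H3K4me3 regions without H3K27me3 and 1.30% of the H3K27me3 regions without H3K4me3. H3K27me3 covered a median of 79.4% of a member's bases, as the mean of both control lists, and at least 50% of the bases in 2919 members. In 2182 members (58.6%) the widest H3K27me3 stretch touching the member was wider than the H3K4me3 region itself. Stretches were merged from all deposited peaks of both control lists. Whether a region lay inside its stretch was not counted, and 1329 members (35.7%) touched 2 or more stretches. A further 4364 regions with H3K4me3 lay between the classes, with H3K27me3 in only 1 control list or under the threshold, and belong to neither.

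Values near the cutoff formed no gap. The member at chr1:89155005-89155482 (mm9) was just inside, with an H3K4me3 value of 5.00 in CK at 2 weeks and 14.0 in CK at 6 weeks. The region at chr7:81156805-81159248 was just outside, with H3K27me3 values of 4.99 and 11.0 beside strong H3K4me3. The smallest control value of the other members nearest to the cutoff, at chr1:74931908-74932623 and chr1:135344894-135345294, was also 5.00, and that of the other regions nearest outside it, at chr1:135225382-135226514 and chr12:11185218-11186080, was 4.99. Among the members, the smaller of both control H3K27me3 values had a median of 9.07, with quartiles of 6.66 and 14.1. That median was 6.12 among the H3K27me3 regions without H3K4me3.

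Around the strongest H3K4me3 summit of each member, both marks had different shapes. In CK at 6 weeks, H3K4me3 peaks covered 99.6% of the summits and 32.6 to 32.9% of the points 1000 bp away. H3K27me3 peaks of the same group covered 84.4% of the summits and 53.5 to 53.8% of the points at that distance, and still 17.9 to 18.7% at 5000 bp. H3K27me3 peaks thus covered more of the distant points than H3K4me3 peaks did. The points were centred on H3K4me3 summits and the control values of both marks chose the members, so these shapes are a description.

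**Figure D1:**
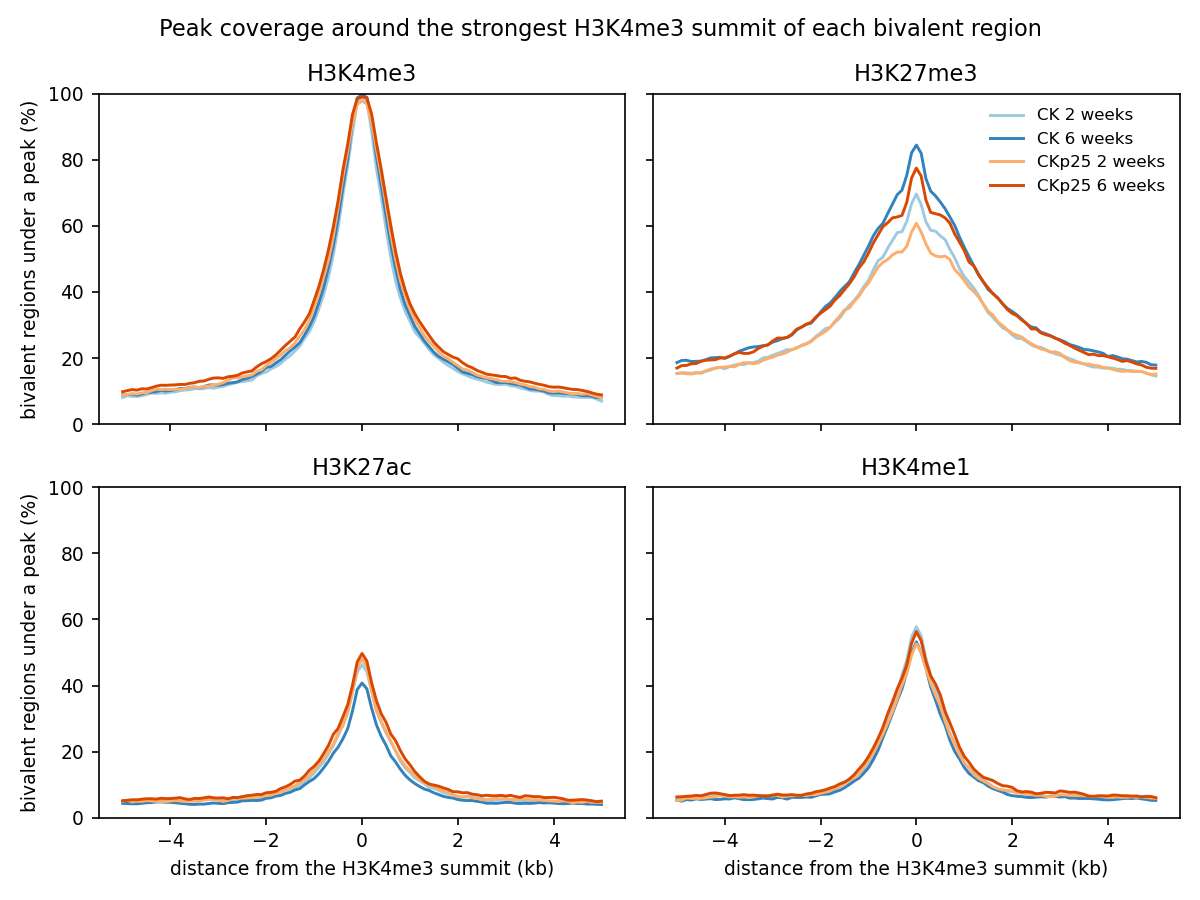
Share of the 3726 bivalent regions under a peak at the threshold (vertical axis, percent) by distance from the strongest control H3K4me3 summit (horizontal axis, kb), for 4 marks and 4 groups, 1 line per peak list. H3K27me3 falls off more slowly than H3K4me3, and its lines differ at the summit more than at 2 kb.

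At the summit itself the H3K27me3 share was lower in CKp25 than in CK of the same time, at 60.8 against 69.6% at 2 weeks and 77.5 against 84.4% at 6 weeks, while at 1000 bp the shares were within 2.09 percentage points. The order at the summit turned when the regions were chosen by CKp25 instead. In the 3995 regions that met the same rule in both CKp25 lists, the summit share was 67.1% in CKp25 against 64.1% in CK at 2 weeks, and 82.7 against 80.3% at 6 weeks. The group whose lists chose the regions had the higher share each time.

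Most members kept both marks in CKp25. At 2 weeks, 3102 members (83.3%, 82.0 to 84.4%) had both marks at the threshold, 558 (15.0%) had H3K4me3 alone, 48 (1.29%) had H3K27me3 alone and 18 (0.483%) had neither. At 6 weeks, 3401 members (91.3%, 90.3 to 92.1%) had both, 298 (7.998%) had H3K4me3 alone, 26 (0.698%) had H3K27me3 alone and 1 (0.0268%) had neither. Both marks were present in both CKp25 lists in 2968 members (79.7%).

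H3K27me3 was the mark more often missing. It was not at the threshold in 576 members (15.5%, against 40.2% of the H3K27me3 regions without H3K4me3) in CKp25 at 2 weeks. At 6 weeks it was not at the threshold in 299 members (8.02%, against a background of 31.6%). The reverse choice gave nearly the same shares: of the regions bivalent in both CKp25 lists, 15.2% had no H3K27me3 at the threshold in CK at 2 weeks and 7.03% had none at 6 weeks. Most of these were weaker peaks rather than empty places: 325 of the 576 and 179 of the 299 still held a deposited peak under the threshold, which leaves 251 members (6.74%) and 120 members (3.22%) with no deposited peak. In 176 members (4.72%) H3K27me3 was under the threshold at both times, against 21.5% of the H3K27me3 regions without H3K4me3. In 59 members (1.58%) neither CKp25 list held any H3K27me3 peak.

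H3K4me3 was rarely missing in CKp25, whose H3K4me3 lists were the longer ones. It was not at the threshold in 66 members (1.77%) at 2 weeks and in 27 members (0.725%) at 6 weeks. The same shares among the H3K4me3 regions without H3K27me3 were 7.91 and 8.20%. The reverse choice gave larger shares: of the regions bivalent in both CKp25 lists, 7.48 and 4.88% lacked H3K4me3 in CK at 2 and 6 weeks. The members had the larger control H3K4me3 values, with a median of the smaller control value of 38.8 against 14.8, and all 27 regions without H3K4me3 at 6 weeks had a smaller control value under 20. Within the range of 5 to 10, 8.79% of the members and 19.8% of the comparison regions lacked H3K4me3 at 2 weeks, and 3.16 and 20.1% did at 6 weeks. That range does not match both classes in strength or width, and no test was made of the difference. Among regions under 1 kb, 95.1% of the members and 84.1% of the comparison regions had H3K4me3 at 2 weeks, and 98.0 and 83.7% at 6 weeks.

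Members without H3K27me3 in CKp25 were almost all members with weak H3K27me3 in the controls. Where the smaller control value was 5 to 10, 567 of 2171 members (26.1%, 24.31 to 28.01%) had no H3K27me3 at the threshold in CKp25 at 2 weeks and 294 (13.5%, 12.2 to 15.0%) had none at 6 weeks. At 10 to 15 the shares were 1.28 and 0.709% of 705 members. At 15 and over, all 850 members kept H3K27me3 at the threshold in both CKp25 lists. H3K27me3 regions without H3K4me3 showed the same fall with strength, from 45.0 and 35.4% at 5 to 10 down to 0 and 0.452% at 20 and over. The range of 5 to 10 does not match both classes in strength, since the members had the larger control values, and no test was made of the difference between them.

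**Figure D2:**
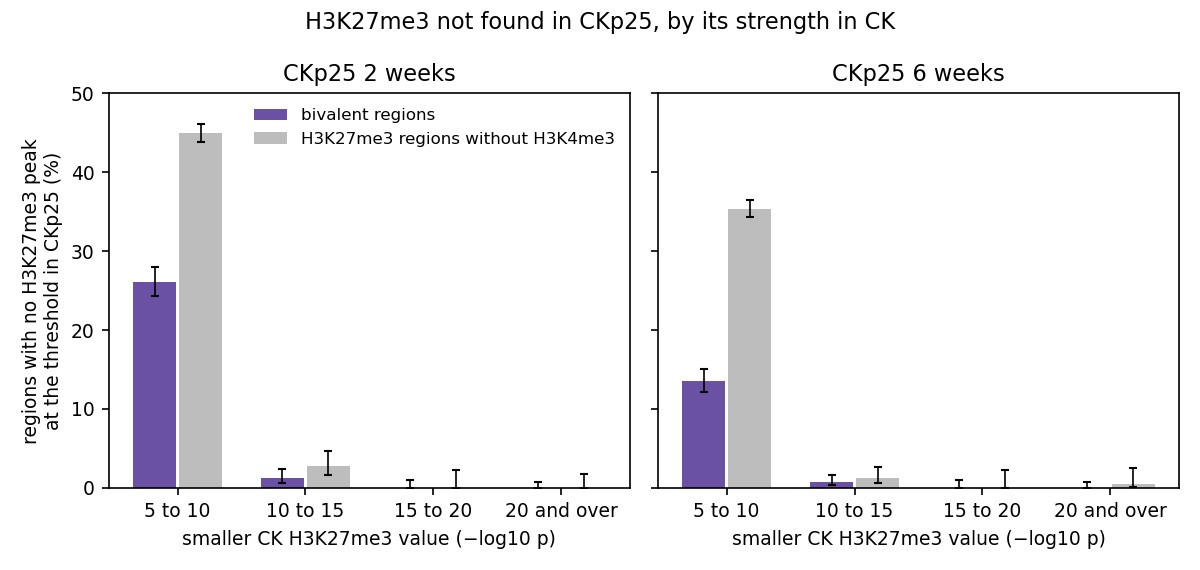
Share of regions with no H3K27me3 peak at the threshold in CKp25 (vertical axis, percent) by the smaller of both control H3K27me3 values (horizontal axis, −log10 p), for the bivalent regions and for the H3K27me3 regions without H3K4me3. Error bars are 95% Wilson intervals, and nearly all missing peaks lie in the lowest range.

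A count of absent peaks between genotypes can be set beside the same count between times within a genotype. Regions chosen by CK at 2 weeks alone (4505) carried H3K27me3 at the threshold in 87.9% of cases in CK at 6 weeks, in 77.2% in CKp25 at 2 weeks and in 86.4% in CKp25 at 6 weeks. Regions chosen by CK at 6 weeks alone (6193) carried it in 68.3% of cases in CK at 2 weeks, 66.9% in CKp25 at 2 weeks and 78.3% in CKp25 at 6 weeks. Regions chosen by CKp25 at 2 weeks alone (4875) carried it in 78.5% in CK at 2 weeks, 87.7% in CK at 6 weeks and 87.4% in CKp25 at 6 weeks. In each of these 3 cases the shares fell in the order of the lengths of the lists that were looked up. Regions chosen by CKp25 at 6 weeks alone (6977) carried it in 75.4% in CK at 6 weeks and in 64.1 and 64.2% in the 2-week lists of CK and CKp25. More members of the CK choice at 6 weeks were without H3K27me3 in the other control list (31.7%) than in CKp25 of the same time (21.7%).

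Apart from H3K4me1, which differed little, the other marks set the members apart from ordinary H3K4me3 regions. H3K27ac, acetylation of the same lysine 27 and a mark of active promoters and enhancers, was at the threshold in 1926 members (51.7%) in CK at 2 weeks, 1721 (46.2%) in CK at 6 weeks, 2027 (54.4%) in CKp25 at 2 weeks and 2086 (56.0%) in CKp25 at 6 weeks. Among the H3K4me3 regions without H3K27me3 the shares were 75.6, 72.2, 75.6 and 75.1%. As background, the same lysine cannot carry both an acetyl and methyl groups, so both peaks at a region come from different histone tails. H3K36me3, which is laid down along transcribed gene bodies, touched only 2.39 to 2.90% of the members against 13.9 to 16.3% of the comparison regions. H4K20me1, also found over active gene bodies, touched 15.1 to 18.5% against 39.8 to 42.7%. H3K9me3, the mark of constitutive heterochromatin, went the other way, with 2.12 to 4.03% of the members against 0.181 to 0.285%. H3K4me1, a mark of enhancers and promoter flanks, touched 72.7 to 77.4% against 75.8 to 80.3%. The lowest H3K9me3 share was that of CKp25 at 2 weeks, whose H3K9me3 list was also the shortest, with 16689 peaks at the threshold against 25090 to 27826. H3K9me3 touched 3.67 to 5.47% of the H3K27me3 regions without H3K4me3, so its presence was not particular to the members.

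**Figure D3:**
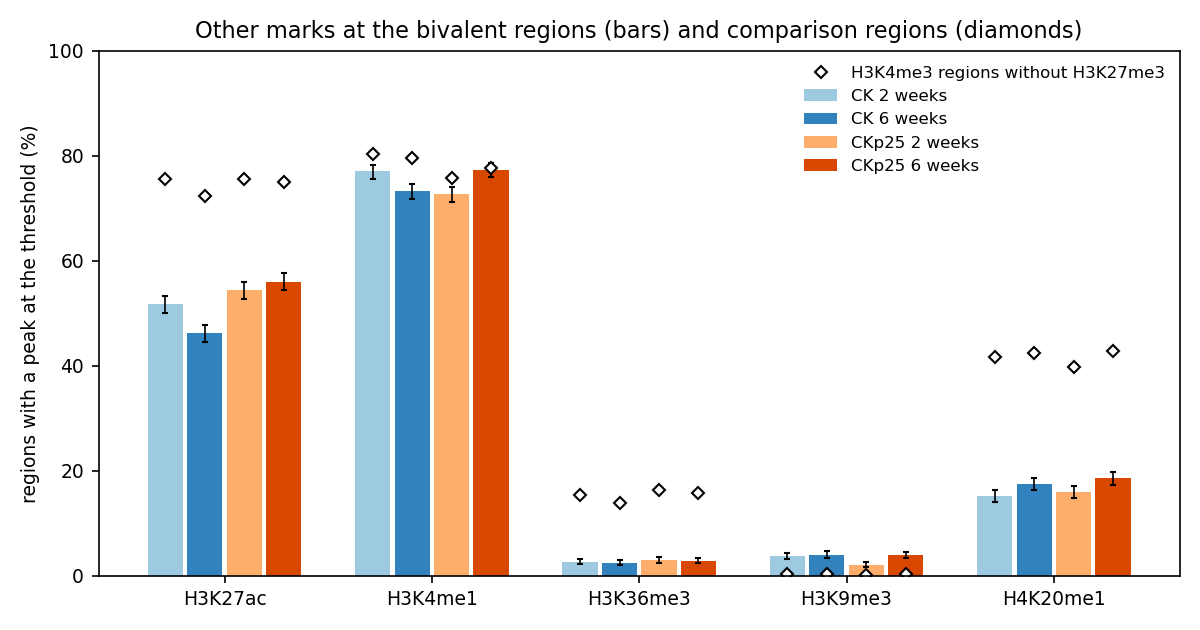
Share of regions with a peak at the threshold (vertical axis, percent) for 5 marks (horizontal axis) in 4 groups. Bars are the 3726 bivalent regions with 95% Wilson intervals and open diamonds the 38200 H3K4me3 regions without H3K27me3, which lie above the bars for H3K27ac, H3K36me3 and H4K20me1 and below them for H3K9me3.

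Width went with part of this pattern, and the gap to the comparison regions was present within each width class. Members under 1 kb carried H3K27ac in 17.1% of cases in CK at 2 weeks, against 55.5% of comparison regions of that width. At 1 to 2 kb the shares were 53.4 and 88.0%, at 2 to 4 kb 84.8 and 98.7%, and at 4 kb and over 96.6 and 99.7%. Wide bivalent regions were thus nearly all acetylated as well, and the members without acetylation were mostly narrow. For H4K20me1 the shares at 4 kb and over were 63.7 and 92.0%.

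The control lists separate acetylated members from those without acetylation. The 1535 members with H3K27ac in both control lists (41.2%) had a median width of 2417 bp and a median of 104 for the smaller H3K4me3 value. The 1161 members with no H3K27ac peak in either control list (31.2%) had a median width of 770 bp, a median smaller H3K4me3 value of 11.3 and a larger H3K27me3 median, 11.4 against 7.84. H3K27me3 was missing in CKp25 at 2 weeks in 17.9% of the first kind and 11.8% of the second. Within the control H3K27me3 range of 5 to 10 those shares were 24.9% (22.4 to 27.5%) and 25.7% (22.1 to 29.7%) at 2 weeks, and 11.3% (9.55 to 13.3%) and 15.3% (12.4 to 18.6%) at 6 weeks. The 86 members with H3K9me3 in both control lists had a higher median H3K27me3 value, 23.7, and 2 of them lacked H3K27me3 in CKp25 at 2 weeks.

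H3K27ac appeared at members in CKp25 more often than it disappeared, above all at 6 weeks. At 2 weeks, 142 members (3.81%, 3.24 to 4.47%) had H3K27ac at the threshold in CKp25 and no deposited peak in CK, beside 2.69% of the H3K4me3 regions without H3K27me3. The opposite change was seen in 99 members (2.66%), beside 2.96%. At 6 weeks, 277 members (7.43%, 6.64 to 8.32%) had H3K27ac in CKp25 only, beside 4.37%, and 74 (1.99%) in CK only, beside 2.74%. Gains outnumbered losses 3.74 to 1 at 6 weeks, against 1.60 to 1 in the comparison regions.

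The size of the 6-week difference depended on what was counted. The H3K27ac list of CK at 6 weeks was the shortest, and with the 87854 strongest peaks of every H3K27ac list the members gaining and losing the mark were 205 and 74, a ratio of 2.77 against 1.29 in the comparison regions. In regions chosen by the CKp25 lists instead, an alternative added after the data were seen, the gains and losses were 266 and 74 (3.59 to 1), while the comparison regions chosen that way stood at 2.56 to 1. At 2 weeks, with equal numbers of peaks and the choice by CKp25, gains and losses were level at 98 and 97. The direction against the comparison regions turned with the denominator: of the members with no H3K27ac peak in CK, 17.6% (15.8 to 19.6%) had one in CKp25 at 6 weeks, against 22.0% (21.0 to 22.9%) of such comparison regions, and at 2 weeks 10.7 against 16.1%.

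In 41 members (1.10%) H3K27ac was at the threshold in both CKp25 lists with no deposited peak in either control list, against 0.599% of the comparison regions. The opposite pattern was found in 3 members (0.0805%), against 0.401% of the comparison regions. Of the 1161 members with no H3K27ac peak in either control list, the 41 are 3.53% (2.61 to 4.76%), against 4.60% (4.05 to 5.21%) of such comparison regions. Of the 41, 29 (70.7%, 55.5 to 82.4%) carried H3K27me3 in both CKp25 lists, against 81.2% of all members. The first by strength was chr7:25247506-25248108 (603 bp), where H3K27ac had values of 9.55 and 10.2 in CKp25 at 2 and 6 weeks and H3K27me3 was at the threshold in all 4 lists. At chr10:21868005-21870197 (2193 bp), H3K27me3 covered all or nearly all bases in every list, from 2165 to 2193 bp, and H3K27ac appeared over 539 bp at 2 weeks and 953 bp at 6 weeks. The member at chr11:94253715-94254407 (693 bp) also kept H3K27me3 in all 4 lists. At chr8:123906700-123907187 (488 bp) H3K27me3 was absent from the CKp25 list of 2 weeks and present at 6 weeks. The fifth, chr2:170030664-170031627, lay in the dense window described below.

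Enhancer mark H3K4me1 also differed between the lists at some members. It was in CKp25 only at 108 members (2.90%) and in CK only at 125 (3.35%), beside 1.84 and 3.63% of the H3K4me3 regions without H3K27me3. At 6 weeks it was in CKp25 only at 171 members (4.59%) and in CK only at 97 (2.60%), while in the comparison regions losses outnumbered gains, at 3.90 and 2.88%. H4K20me1 was in CKp25 only at 75 members (2.01%) and in CK only at 57 (1.53%) at 2 weeks, again with the opposite order in the comparison regions, at 1.27 and 2.26%. At 6 weeks the members stood at 113 (3.03%) and 79 (2.12%) and the comparison regions at 2.14 and 1.80%. H3K9me3 was in CK only at 55 members (1.48%) and in CKp25 only at 11 (0.295%) at 2 weeks, the time of the short H3K9me3 list. The comparison regions had the same order, at 0.131 and 0.0393%. At 6 weeks the members stood at 36 (0.966%) and 33 (0.886%) and the comparison regions at 0.0654 and 0.115%. H3K36me3 changed in at most 25 members (0.671%) in either direction at either time. The comparison regions changed more often, with 2.08 and 2.64% in CKp25 only at 2 and 6 weeks and 1.28 and 1.34% in CK only.

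The members were unevenly spread along the genome. The share of H3K4me3 regions that were bivalent ranged from 5.52% on chromosome 16 to 10.02% on chromosome 2. Neighbouring members lay a median of 154659 bp apart, and 775 of 3707 gaps (20.9%) were under 10 kb. With gaps of at most 50 kb, 666 members formed 117 runs of 4 or more. Coordinates are those of mm9, and no gene was assigned to any of them, since no annotation of that build was used.

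The widest member, chr3:34546775-34566039, spanned 19265 bp. H3K4me3 covered 18904 to 19192 bp of it in the 4 lists and H3K27me3 12994 to 15946 bp. H3K27ac covered 14547 bp of it in CK and 13835 bp in CKp25 at 2 weeks, and 12527 and 14448 bp at 6 weeks. The next widest were 14958 bp on chromosome 18, 14451 bp at chr12:109230664-109245114, 13103 bp at chr2:61640382-61653484 and 12779 bp at chr19:59529899-59542677. All 5 carried H3K4me3, H3K27me3 and H3K27ac at the threshold in every list. At chr2:61640382-61653484 H3K27me3 covered 8065 bp in CK and 8656 bp in CKp25 at 2 weeks, and 7332 and 11944 bp at 6 weeks. H3K27ac covered 8926 and 7210 bp of it at 2 weeks and 7432 and 5789 bp at 6 weeks, less in CKp25 at both times. The region at chr19:59529899-59542677 went the same way, with H3K27me3 over 6118 and 8457 bp at 2 weeks and 8447 and 10029 bp at 6 weeks, and H3K27ac over 8368 and 7558 bp and then 8932 and 6736 bp. At chr12:109230664-109245114 H3K27ac was also narrower in CKp25 (11555 and 9447 bp, then 11021 and 7409 bp), while H3K27me3 was narrower at 2 weeks (3956 and 2223 bp) and wider at 6 weeks (4423 and 5728 bp). In the region on chromosome 18, H3K27ac covered 13606 and 13673 bp at 2 weeks and 13311 and 13019 bp at 6 weeks. H3K27ac was thus narrower in CKp25 at both times in 3 of the 5 widest members and at 1 time in the other 2.

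The 5 windows of at most 200 kb with the most members behaved alike in H3K4me3, which was present at every member in every list. The window chr1:74759296-74947909 held 16 members, of which 15 had H3K27me3 in each CKp25 list and 7 to 8 had H3K27ac in the 4 lists. All 15 members of chr14:122772775-122890943 and all 15 of chr9:91245066-91301203 had H3K27me3 in both CKp25 lists, with H3K27ac at 11 to 13 of the former and 3 to 5 of the latter. Of the 13 members at chr19:44744718-44912283, 12 and 13 had H3K27me3 in CKp25 at 2 and 6 weeks, and H3K27ac was at the threshold at 3 and 2 members in CK and at 2 and 0 in CKp25.

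The window chr2:169954810-170114385, also with 13 members, differed from the other 4 in the number of members with each of both marks. H3K27me3 was at the threshold at 9 members in CKp25 at 2 weeks and at 7 at 6 weeks. H3K27ac was at the threshold at 6 and 7 members in CK at 2 and 6 weeks and at 12 and 11 in CKp25. Only 1 member, chr2:170009562-170010898, had no H3K27me3 peak in either CKp25 list, and its H3K27ac values were 5.20 and 4.32 in CK against 8.85 and 10.2 in CKp25. At chr2:169954810-169956560 H3K27me3 had values of 8.58 and 6.68 in CK, no peak in CKp25 at 2 weeks and a value of 3.55 at 6 weeks. The members at chr2:170044647-170047088 and chr2:169978451-169979758 kept H3K27me3 in all 4 lists, with values of 7.32 to 13.1 and 9.25 to 12.4. Over the whole window, H3K27ac peaks covered 5.49 kb in CK and 12.5 kb in CKp25 at 2 weeks, and 5.32 and 14.5 kb at 6 weeks. H3K27me3 peaks covered 11.96 and 11.47 kb at 2 weeks and 21.58 and 12.96 kb at 6 weeks. The H3K27ac difference was present at both times, while that of H3K27me3 coverage was present at 6 weeks alone. Coverage at 6 weeks was not particular to this window. On chromosome 14, H3K27me3 covered 51.5 kb in CK and 39.2 kb in CKp25, and H3K27ac 17.9 and 26.1 kb. The chromosome 9 window moved the same way, at 48.8 and 44.2 kb and at 2.82 and 3.78 kb. Those on chromosomes 1 and 19 went the other way in both marks. In 11 of the 13 members the smaller control H3K27me3 value was under 10, the range in which H3K27me3 was often missing among the members in general. This window was picked out from the 5 after its values were seen.

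**Figure D4:**
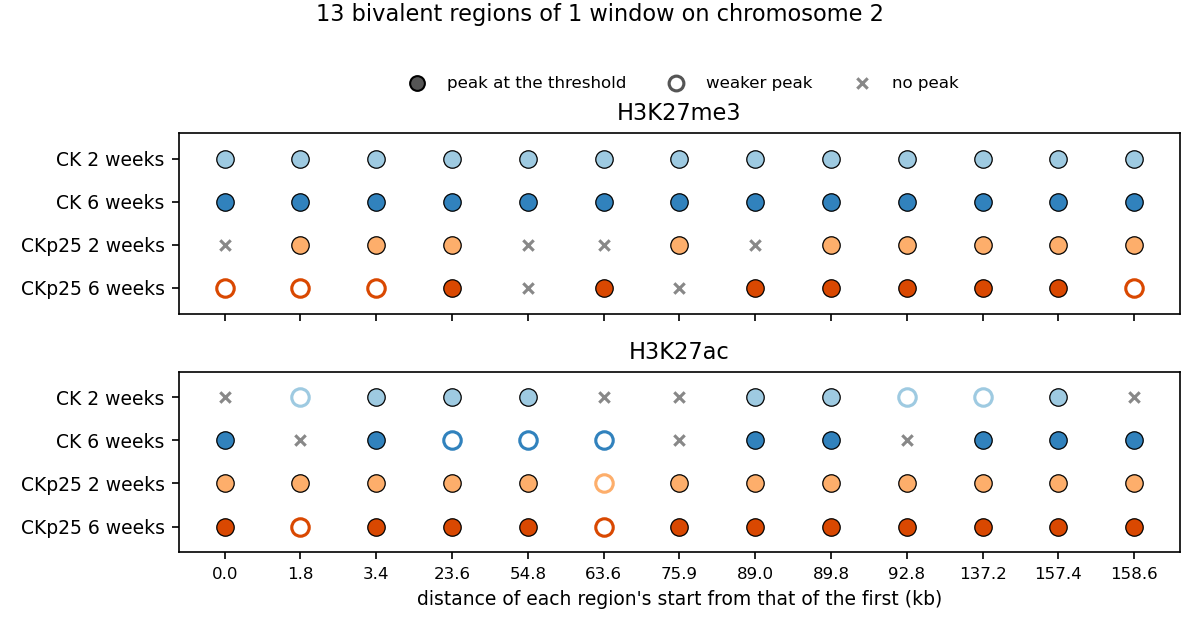
Presence of H3K27me3 and H3K27ac peaks at the 13 bivalent regions of the chromosome 2 window in the 4 groups (rows), in order along the chromosome (horizontal axis, distance of each start from the first in kb). Filled circles are peaks at the threshold, open circles weaker deposited peaks and crosses no peak. H3K27me3 is at the threshold at 9 and 7 regions in CKp25. The choice of members fixed it at all 13 in both CK rows, so the CKp25 counts could not be higher. H3K27ac, which did not enter the choice, is at the threshold at 6 and 7 regions in CK and at 12 and 11 in CKp25.

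No deposited H3K27me3 peak was left in either CKp25 list at 59 members. The strongest of them in CK by the smaller H3K27me3 value was chr14:104866808-104867439 (632 bp), with values of 19.4 and 10.4 in CK. Of its bases, 37 and 452 bp were under the control peaks, and no H3K27ac, H3K4me1, H3K36me3, H3K9me3 or H4K20me1 peak touched it in any list. At chr19:18948317-18948901 (585 bp), H3K27me3 covered 538 and 512 bp in CK and none in CKp25, and H3K27ac had values of 7.65 and 4.87 in CK and 6.81 and 5.51 in CKp25. At chr5:35291233-35294105 (2873 bp), a broad H3K4me3 region with H3K27ac at the threshold in all 4 lists, H3K27me3 covered 671 and 951 bp in CK. The others were chr2:165329658-165330144 and chr2:34214824-34216239, with H3K27me3 values of 7.25 to 9.13 in CK. The opposite choice gave a like number. The 3995 regions bivalent in both CKp25 lists overlapped 3010 members (80.8%), and 2981 of them (74.6%) overlapped a member. Of the 3995, 47 (1.18%) had no deposited H3K27me3 peak in either CK list.

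No deposited H3K4me3 peak in either CKp25 list was seen at 5 members, which were 246 to 466 bp wide. At chr19:25580260-25580632 the control H3K4me3 values were 6.12 and 5.31, while H3K27me3 covered all 373 bp in every list with values up to 38.9. At chr9:3002155-3002400 H3K9me3 was at the threshold in all 4 lists, with values of 11.6 to 19.0. The other 3, chr2:179179307-179179704, chr11:114501025-114501490 and chr5:106634812-106635276, had control H3K4me3 values of 5.00 to 11.3.

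RNA was measured for the enzymes that write, read and erase both marks, in 12 libraries with 5029996 to 6450140 gene counts. Of 48 Polycomb and COMPASS genes, all 48 passed the filter on low counts. At 2 weeks 3 of them rose and 3 fell at an adjusted p under 0.05 (quasi-likelihood test of edgeR), against 11.6 and 7.99% of all 14457 genes tested. At 6 weeks 4 were higher and 8 lower, against 18.1 and 15.2% of all genes. The higher genes include Phf19 at both times, which passed the filter through the CKp25 libraries and was bound to differ. The median log2 fold change of the 48 was -0.02 at 2 weeks and -0.12 at 6 weeks, against -0.01 and 0.00 over all genes. The effect of genotype differed between times in none of the 48 genes (edgeR interaction and DESeq2, both 0), with 1 higher and 6 lower at an unadjusted p under 0.05. Without 1 library, the 6 calls at 2 weeks became 2 (CK_2wk_4891 or CKp25_2wk_4894 left out) or 3 (CK_2wk_4893 left out), and the 12 calls at 6 weeks became 5 (CK_6wk_3938 left out) or 6 (CKp25_6wk_3937 or CKp25_6wk_4008 left out). The labels do not say that the libraries of a group are separate animals, so p-values measure only the spread between libraries.

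Phf19, a PRC2 accessory protein that binds H3K36me3, had 0.503, 0.205 and 0.203 CPM (gene counts scaled to library size) in the CK libraries at 2 weeks and 2.92, 3.15 and 4.25 CPM in CKp25. At 6 weeks it had 0.610, 0.202 and 0.698 CPM in CK and 1.80, 2.09 and 2.73 CPM in CKp25. The groups did not overlap at either time, though the CK values rest on 1 to 4 counts per library and those of CKp25 on 9 to 26. Phf19 passed the filter on low counts through the CKp25 libraries, so a difference was bound to be seen, and its log2 fold changes of 3.35 (SE 0.471) and 2.06 (SE 0.466) are a description.

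Among the core PRC2 subunits, Suz12, the scaffold of the complex, rose from 30.5 ± 1.42 to 39.9 ± 2.05 CPM (SD, n = 3) at 2 weeks (log2 fold change 0.39, edgeR adjusted p = 0.00619), with values of 29.3 to 32.0 against 38.2 to 42.2. At 6 weeks it was 30.7 ± 0.629 and 34.1 ± 2.72 CPM, a difference that did not pass (edgeR adjusted p = 0.243). Eed, which binds the H3K27me3 mark itself, was 6.40 ± 0.947 and 8.67 ± 1.01 CPM at 2 weeks (edgeR adjusted p = 0.155). It rose from 5.72 ± 0.339 to 9.67 ± 2.04 CPM at 6 weeks (log2 fold change 0.76, edgeR adjusted p = 0.00806), and without the library CKp25_6wk_4008 this call was not made (log2 fold change 0.57, adjusted p = 0.0548). The catalytic subunit of non-dividing cells, Ezh1, was 83.0 ± 1.73 and 71.2 ± 6.82 CPM at 2 weeks (edgeR adjusted p = 0.0862) and fell from 89.4 ± 7.47 to 70.3 ± 4.90 CPM at 6 weeks (log2 fold change -0.35, edgeR adjusted p = 0.00497). Ezh2, the catalytic subunit typical of dividing cells, passed at neither time, with 9.86 ± 0.625 and 14.4 ± 3.20 CPM at 2 weeks (edgeR adjusted p = 0.0838) and 10.1 ± 3.18 and 13.5 ± 2.06 CPM at 6 weeks (edgeR adjusted p = 0.157). Neither the Ezh1 nor the Ezh2 effect was shown to differ between the times. Without the library CKp25_2wk_4518 both were called at 2 weeks (edgeR adjusted p = 0.0209 and 0.0358), without both CKp25_2wk_4518 and CK_2wk_4520 Ezh1 was (0.0448), and without CK_6wk_3936 Ezh2 was called at 6 weeks (0.0488).

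Rnf2, the ubiquitin ligase of PRC1, was 33.6 ± 4.15 and 35.8 ± 2.19 CPM at 2 weeks and 34.2 ± 4.47 and 30.4 ± 2.01 CPM at 6 weeks, and passed at neither time. Among all genes tested, 11.6% were higher and 7.99% lower at 2 weeks, and 18.1 and 15.2% at 6 weeks. Of the 19 PRC1 genes, 0 were higher and 2 lower at 2 weeks, and 1 was higher and 2 lower at 6 weeks. At an unadjusted p under 0.05, 1 was higher at 2 weeks, and DESeq2 called 0 higher. These few were chosen for naming after their values were seen: Cbx6 and Cbx7, subunits that read H3K27me3, were lower at 2 weeks, and Cbx6 and Pcgf6 were lower and Pcgf5 higher at 6 weeks. The H3K27 demethylases Kdm6a and Kdm6b passed at neither time by edgeR or DESeq2, and neither had an unadjusted p under 0.05. Kdm6a ranged from 54.1 to 64.9 CPM over the 12 libraries.

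Of the 12 COMPASS genes, 0 were called at 2 weeks (1 higher and 0 lower at an unadjusted p under 0.05, DESeq2 0) and 3 were lower at 6 weeks. Those 3, named after their values were seen, were the methyltransferases Kmt2a and Kmt2d and the cofactor Men1. They stand beside 15.2% of all genes tested that were lower at 6 weeks. Kmt2b, the COMPASS enzyme known for H3K4me3 at bivalent promoters, was 46.6 ± 3.55 and 46.2 ± 7.81 CPM at 2 weeks and 47.7 ± 5.19 and 45.4 ± 2.74 CPM at 6 weeks, and passed at neither. Of the 4 H3K4 demethylases, 1 (Kdm5b) was lower at each time, beside 7.99 and 15.2% of all genes tested at 2 and 6 weeks.

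Textbook Polycomb targets, developmental regulators known to be held silent in most adult cells, were mostly too low to test. Of 76 listed genes, 75 were found in the table and 20 passed the filter on low counts, while the other 55 had at most 98 counts over all 12 libraries together. None of them was assigned to a bivalent region here. Genes that pass such a filter through 1 group alone are bound to differ, so the counts among the 20 are a description. At 2 weeks 1 was higher and 0 lower by edgeR (1 lower at an unadjusted p under 0.05, DESeq2 0), beside 11.6 and 7.99% of all genes tested. At 6 weeks 4 were higher and 1 was lower, beside 18.1 and 15.2% of all genes tested.

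Runx1, a transcription factor of blood cell formation that microglia also express, had 2.01, 0.614 and 1.42 CPM in CK and 8.60, 7.42 and 6.21 CPM in CKp25 at 2 weeks. At 6 weeks it had 1.22, 1.21 and 1.22 CPM in CK and 14.2, 8.05 and 6.55 CPM in CKp25. All CKp25 libraries were above all CK libraries at both times, with log2 fold changes of 2.40 (SE 0.369) and 2.94 (SE 0.372). Runx1, too, passed the filter through CKp25, with 3 to 12 counts in each CK library and 36 to 71 in each CKp25 library, and these folds are a description. Sox17, a factor of endoderm and blood vessels, was 4.00 ± 1.18 and 4.13 ± 1.49 CPM at 2 weeks, with groups that overlapped. At 6 weeks its CK libraries had 3.87, 2.83 and 3.14 CPM and those of CKp25 6.80, 6.60 and 6.55 CPM, a log2 fold change of 1.02 (SE 0.285, edgeR adjusted p = 0.0109). Among the other calls at 6 weeks, and named after their values were seen, Pax6 was higher and Lhx9 was lower. The effect of genotype was not shown to differ between the times for any of the 20 genes (edgeR interaction 0, DESeq2 0, 4 higher and 1 lower at an unadjusted p under 0.05). Without the library CK_2wk_4891 or CKp25_6wk_3937, 2 targets were called at 2 weeks.

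**Figure D5:**
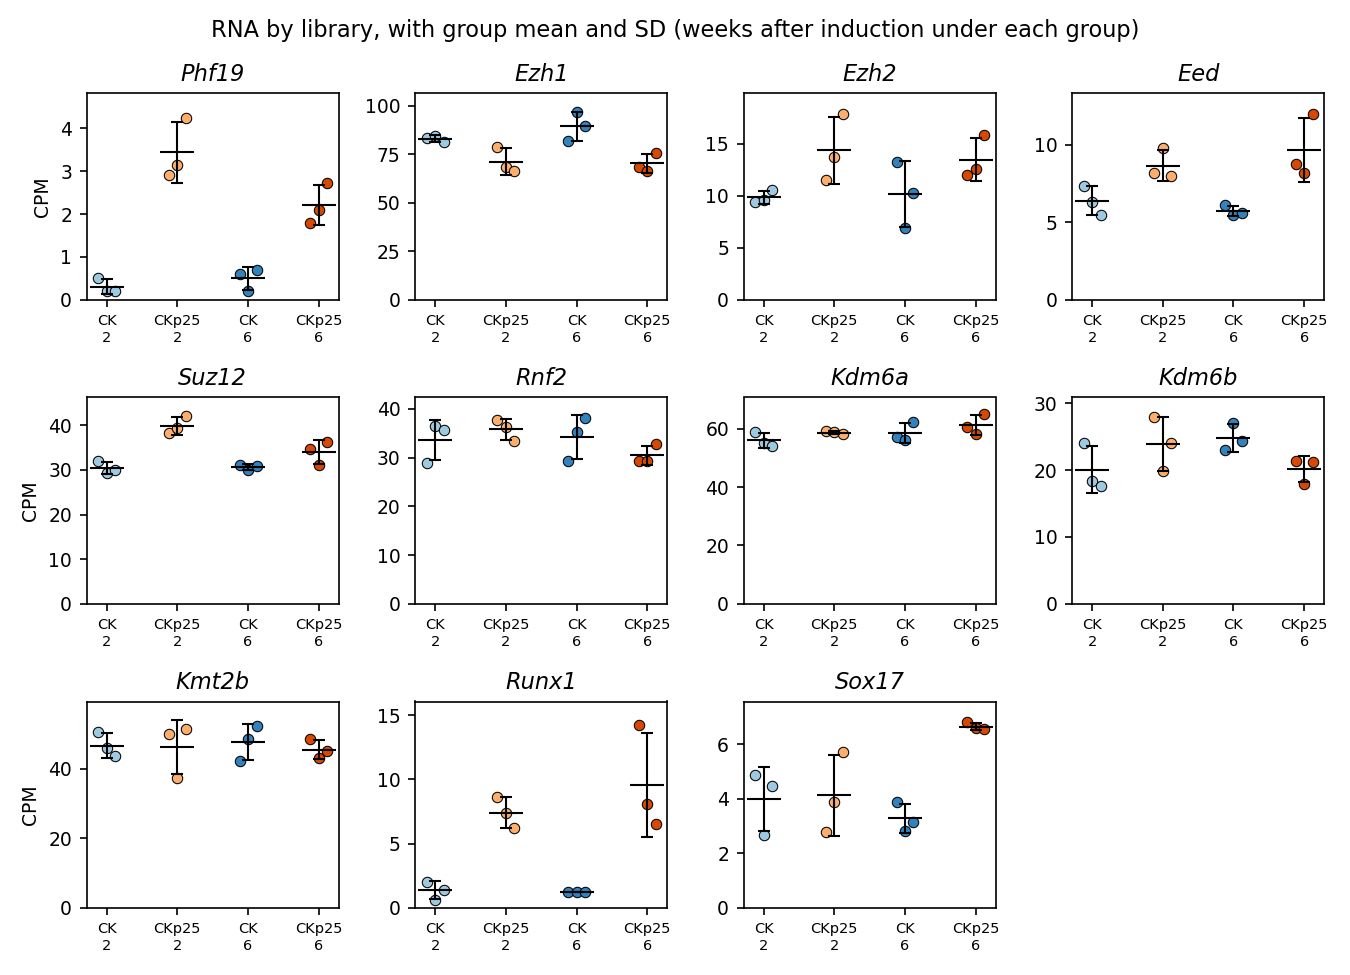
RNA level in CPM (vertical axes, from 0) of 11 genes in the 4 groups (horizontal axes, genotype and weeks after induction), with a point per library, a line at the mean and bars of 1 SD (n = 3). Phf19, Runx1, Ezh1 and Eed do not overlap between genotypes at either time, while Kdm6a, Kmt2b and Rnf2 do at both. Phf19 and Runx1 passed the filter on low counts through CKp25, so their difference was bound to be seen. The share of all tested genes without overlap was not counted.

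The RNA of cell type markers differed between genotypes, and in whole tissue fewer cells of a type and less RNA per cell cannot be told apart. The counts of called markers stand beside 11.6% higher and 7.99% lower of all genes tested at 2 weeks, and 18.1 and 15.2% at 6 weeks. All 8 microglia markers were higher at both times, with summed levels of 232 to 251 CPM in CK and 834 to 1081 in CKp25 at 2 weeks and 216 to 244 against 974 to 1289 at 6 weeks. All 5 markers of dividing cells were higher at both times, from 14.6 to 18.0 up to 232 to 384 CPM at 2 weeks and from 13.4 to 15.7 up to 69.5 to 95.6 CPM at 6 weeks. Those CK sums over 5 genes were low, and genes that pass the filter on low counts through CKp25 alone are bound to differ. Which of the 5 did so was not counted, so the calls among them are a description. Of 5 astrocyte markers, 4 were higher at 2 weeks and 5 at 6 weeks, and of 8 markers of hippocampal neurons 6 were lower at 2 weeks and 8 at 6 weeks. Of 4 oligodendrocyte markers 0 were called at 2 weeks (0 at an unadjusted p under 0.05 by edgeR and 0 by DESeq2) and 4 were higher at 6 weeks. The neuron markers, which fit the labelled hippocampus, summed to 2630 CPM or more in every library. Choroid plexus markers ranged from 13.4 to 2359 CPM between libraries and blood markers from 14.0 to 67.2 CPM, and none of either was called by edgeR or DESeq2, with 2 blood markers lower at 2 weeks at an unadjusted p under 0.05. At 2 weeks, 6.81 to 7.15% of reads aligned to several places in CKp25_2wk_4518 and CK_2wk_4520 and 12.2 to 14.3% in the other 4 libraries. At 6 weeks, such reads differed between genotypes, with 6.86 to 9.52% of a library in CK and 11.5 to 13.9% in CKp25. The part of these differences in the peak and RNA results was not tested.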

How the data were processed

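The authors deposited 28 narrowPeak lists of ChIP-seq peaks and, per the file headers, 1 table of unscaled counts of reads for each Ensembl gene in 12 RNA libraries. In those lists the fold enrichment (not used here) and the −log10 p of each peak are the authors' deposited values, the latter used only to filter and rank peaks within a list. The tools named in the submitters' processing notes are MACS2, Bowtie, Picard and HTSeq (0.6.1), with mm9 and NCBIM37 as builds. The parameters, the strand setting of the counting and whether animals were pooled are not given in the sources used here. Columns of per-sample values left out numbered 0. The 5 entries that name no gene (60.0 to 63.6% of a library's total) entered neither library sizes nor tests.

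The lists hold the peaks of each group once, so regions were described by counts and Wilson intervals, with no test. Overlap meant at least 1 shared bp. Peaks of chromosomes other than the 19 autosomes were left out. Counts were tested in R 4.3.3 with edgeR 4.0.16 (filterByExpr, TMM scaling, quasi-likelihood test, all 12 libraries in 1 fit of 4 group means), with Benjamini-Hochberg adjustment over all 14457 genes tested. DESeq2 1.42.0, no filter on low counts and leaving out each library were alternatives, and for the regions another threshold, every deposited peak, joined peaks, the H3K4me3 summit, equal list lengths and other choosing lists. Both the region and the count code were tested on simulated data. The symbol table named 32919 of 37991 genes, and 159 of 160 list entries were found. No library number is shared between groups, so no pairing was used. CPM were computed with TMM-scaled library sizes.

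Members and gene lists were chosen with earlier results of these data known. Named genes were the tested members of the Polycomb and COMPASS and target lists called at either time with an absolute log2 fold change of at least 1, up to 12 per list by adjusted p, plus 8 core genes. Named regions were the 5 widest, the 5 densest windows of 200 kb, the first 5 without H3K27me3 or H3K4me3 in CKp25 or with H3K27ac in CKp25 only, and 3 on each side of the threshold. The planned comparison with the RNA of genes at the regions was not made, and no sequence is shown, since no genome or annotation of mm9 was used here. A called gene of the target list is counted but not reported by name here.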

Additional observations from a re-analysis of the deposited data

How the results depend on the processing

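Each mark and group has 1 peak list, list lengths differ, and the read depth is not known, so its part in the region results was not tested. The number of bivalent regions was 1232 with a −log10 p of at least 10, 5732 with every deposited peak, 2463 at the H3K4me3 summit and 6193 when chosen by CK at 6 weeks alone. The share without H3K27me3 in CKp25 at 2 and 6 weeks was 21.9 and 5.36% at 10 and over, 17.8 and 9.93% with every deposited peak, 12.9 and 9.53% with equal numbers of peaks per list, 22.8 and 13.6% when chosen by CK at 2 weeks alone and 33.1 and 21.7% by CK at 6 weeks alone. It was 20.7% at the summit at 2 weeks, and 7.03% at 6 weeks for regions chosen by CKp25 and followed in CK. Among the H3K27me3 regions without H3K4me3 the shares were 27.03 and 13.29% at 10 and over, and 33.2 and 33.3% with equal lists.

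The share without H3K4me3 at 2 and 6 weeks was 1.20 and 0.498% with peaks up to 1000 bp apart joined, 4.59 and 3.00% when chosen by CK at 2 weeks alone, 6.62 and 4.51% by CK at 6 weeks alone and 7.48 and 4.88% by CKp25 and followed in CK. It was 0.974% at 10 and over and 2.56% at the summit at 2 weeks, and 1.38% with every deposited peak and 1.35% with equal lists at 6 weeks. The share with H3K27ac in CKp25 and not in CK was 0.406 and 0.731% at 10 and over, 7.43 and 12.2% with every deposited peak, 5.64 and 10.2% at the summit and 2.85 and 5.61% with equal lists. The reverse change in regions chosen by CKp25 was 2.93 and 1.85%, and the same direction there, added after the data were seen, was 3.35 and 6.66%. The cause of these shifts was not tested.

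With every gene of at least 1 count tested, 2 textbook targets were called at 2 weeks and 8 at 6 weeks. With each library left out in turn, the calls among Polycomb and COMPASS genes ranged from 2 to 7 at 2 weeks and from 5 to 14 at 6 weeks, and those among the targets from 1 to 2 and from 4 to 6. Of 352 values of the 11 named genes under alternatives, 6 changed their call, for Ezh1, Ezh2 and Eed, and none changed sign with a call. No library number is shared between groups, so no pairs were fitted. With the leading digits of the library numbers as a term, a fit added after the data were seen, 6 and 12 Polycomb and COMPASS genes and 2 and 6 targets were called at 2 and 6 weeks. With CK_2wk_4520 and CKp25_2wk_4518 left out together the calls were 5 and 11, and 1 and 5.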

Other observations

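Members can be followed in runs of neighbours at most 50 kb apart, a grouping chosen after the values were seen. Of 117 runs of 4 or more, 104 held no member without H3K27me3 at the threshold in both CKp25 lists. Only the run at chr5:114987387-115045239 held 3 such members, of 5. There H3K27me3 was at the threshold at 2 members in CKp25 at 2 weeks and at 1 at 6 weeks, and H3K27ac at 4 and 3 in CK and at 5 and 4 in CKp25. In the run at chr16:91169874-91321783, with 12 members, H3K27ac was at the threshold at 7 members in each control list and at 10 in each CKp25 list. Among 163 such runs of regions chosen by CKp25, the most regions without H3K27me3 in both CK lists in a single run was 1.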
